A study of Mus musculus with 9 samples.

Results

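In MLL-AF9 leukaemia cells before induction of TGIF1, the sites of the homeodomain protein TGIF1 formed a small set that lay mostly inside the much larger set of MEIS1 sites. Peaks of the 4 lists from ethanol-treated (EtOH) cells, 2 for TGIF1 and 2 for MEIS1, were merged wherever they overlapped by at least 1 bp, which gave 46516 sites. Of these, 548 (1.18%) held only TGIF1 peaks, 2264 (4.87%) held peaks of both proteins and 43704 (94.0%) held only MEIS1 peaks. Merging all 8 lists of the series in the same way gave 60709 sites, and the lists from induced cells had no part in choosing or classing the sites.

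The cells came from C57BL/6 bone marrow, where c-kit+ cells had been transformed with MLL-AF9, a leukaemia fusion oncogene, and every sample carried pMIG-TGIF1-ER, in which TGIF1 is joined to the estrogen receptor. The EtOH groups were therefore not free of the construct, and endogenous TGIF1 and TGIF1-ER cannot be told apart with the antibody used, TGIF (H-172). The EtOH cells were precipitated with that antibody (TGIF1 EtOH) or with a Meis antibody (MEIS1 EtOH), and the cells given 4-OHT for 20 h to switch on TGIF1-ER formed the groups TGIF1 4-OHT and MEIS1 4-OHT. Each group had 2 libraries, whose labels do not say whether they came from separate cultures, so the spread between them may be technical, and an IgG sample was not analysed here.

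TGIF1 and MEIS1 both belong to the TALE class of homeodomain proteins, whose homeodomain carries an extra loop and prefers related short DNA words. MEIS1 forms complexes with HOX and PBX proteins and is a known cofactor of HOXA9 in MLL-rearranged leukaemia. TGIF1 is known as a transcriptional repressor that recruits corepressors and limits SMAD-dependent transcription in the TGF-beta pathway.

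Far fewer peaks were listed for TGIF1 than for MEIS1. TGIF1 EtOH replicate 1 held 2764 peaks and replicate 2 held 592, while MEIS1 EtOH replicate 1 held 26254 and replicate 2 held 43564. Both MEIS1 lists were longer than both TGIF1 lists, with means of 34909 ± 12240 and 1678 ± 1536 peaks (SD, n = 2), a ratio of 20.8 (4.38 on the log2 scale). The two-sided exact permutation p over libraries was 0.333, the smallest that 2 against 2 libraries can give. The log2 ratio was 5.88 without TGIF1 EtOH replicate 1 and 3.66 without TGIF1 EtOH replicate 2. The lists hold positions only, with no score and no read number, so the depth of each library is unknown and a missing peak does not show that a protein was absent.

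MEIS1 peaks were also longer. The median peak length was 283 and 336.5 bp in the TGIF1 libraries and 362 and 633 bp in the MEIS1 libraries. The groups did not overlap, with means of 309.75 ± 37.8 and 497.5 ± 192 bp (SD, n = 2), a difference of 187.75 bp (two-sided exact permutation p = 0.333, the smallest possible). The difference was 52.25 bp without MEIS1 EtOH replicate 2 and 323.25 bp without MEIS1 EtOH replicate 1. In all, the peaks covered 908 and 244 kb in the TGIF1 libraries and 10210 and 31242 kb in the MEIS1 libraries.

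Most TGIF1 sites carried MEIS1, whereas few MEIS1 sites carried TGIF1. A MEIS1 peak was present at 2264 of the 2812 sites with TGIF1 (80.5%, exact 95% Clopper-Pearson interval 79.0 to 82.0%), and a TGIF1 peak at 2264 of the 45968 sites with MEIS1 (4.93%, 4.73 to 5.13%). These intervals, like all below, cover counting error only. By library, a MEIS1 peak overlapped 81.7% of TGIF1 replicate 1 peaks and 84.1% of TGIF1 replicate 2 peaks (mean 82.9 ± 1.72%, SD, n = 2). A TGIF1 peak overlapped 5.93% of the peaks of MEIS1 EtOH replicate 1 and 5.11% of those of replicate 2 (mean 5.52 ± 0.578%, SD, n = 2). The 2 libraries of a protein thus gave similar shares. Both shares of sites count the same 2264 sites, so the gap between them follows from the totals of 2812 and 45968. With 2812 TGIF1 sites, only a small part of the 45968 MEIS1 sites could carry TGIF1. The shares depended on what counts as shared: with a reciprocal overlap of 50% they were 45.0% of TGIF1 and 2.32% of MEIS1 sites, and with each list reduced to its 592 longest peaks they were 15.6 and 12.9%.

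The overlap of TGIF1 with MEIS1 rested largely on the longer of the MEIS1 lists. Against MEIS1 EtOH replicate 2 alone, 80.1 and 82.1% of the peaks of the TGIF1 libraries were matched. Against MEIS1 EtOH replicate 1 alone, the shares were 55.8 and 48.5%. Without MEIS1 EtOH replicate 2, the share of TGIF1 sites with MEIS1 was 54.1%. TGIF1 EtOH replicate 1 carried the other direction, since without it only 1.07% of MEIS1 sites had TGIF1.

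The replicates of one protein also overlapped unevenly, though less so than the 2 proteins. For TGIF1, 16.9% of the peaks of replicate 1 met a replicate 2 peak and 78.2% the other way round. For MEIS1, 90.8% of the peaks of replicate 1 met replicate 2 and 52.3% the other way round. The share of TGIF1 replicate 2 peaks that met a MEIS1 peak (84.1%) was therefore close to the share that met the other TGIF1 library (78.2%), while the MEIS1 lists were many times longer than the TGIF1 list.

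**Figure D1:**
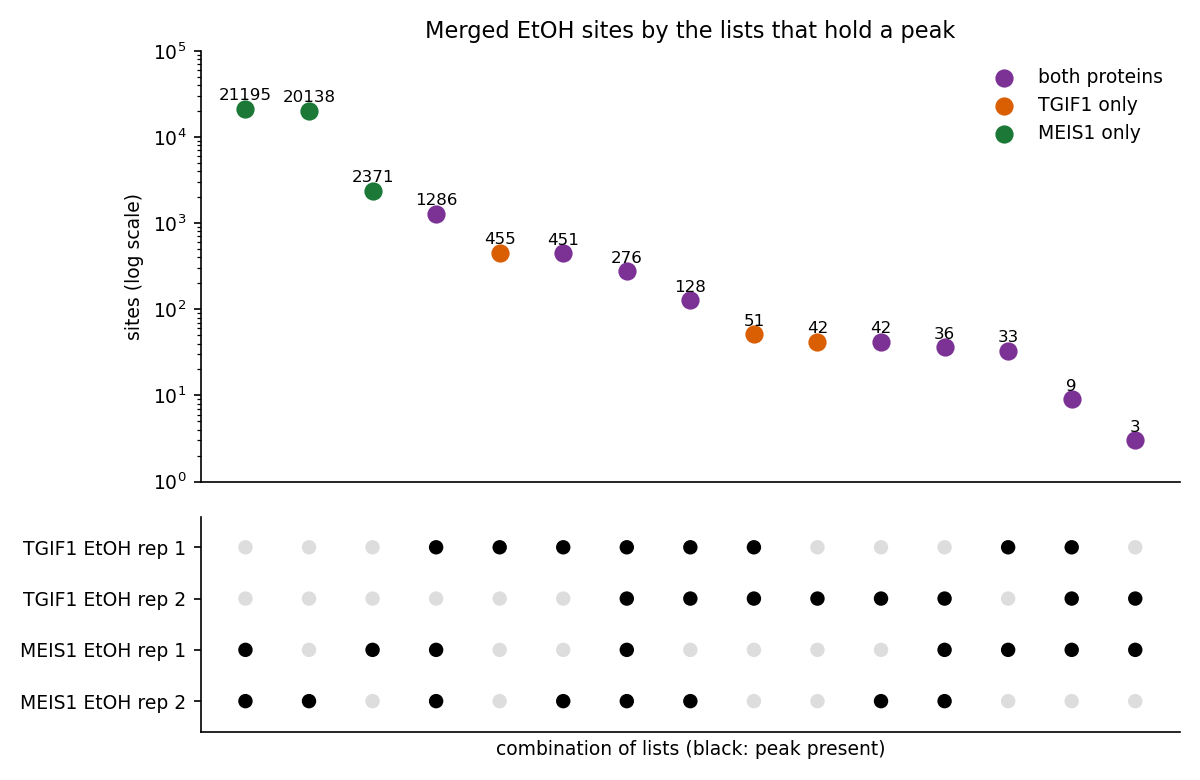
Number of merged EtOH sites (log scale) for each combination of the 4 EtOH lists; black dots below mark the lists with a peak and colour marks the class of site. The combinations without TGIF1 lead with 21195, 20138 and 2371 sites, and 276 sites hold a peak in all 4 lists.

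Sites found in more libraries of one protein carried the other protein more often. Of the 464 sites with a peak in both TGIF1 libraries, 413 (89.0%, 85.8 to 91.7%) held a MEIS1 peak, beside 1851 of the 2348 sites with 1 TGIF1 library (78.8%, 77.1 to 80.5%). Among sites with both MEIS1 libraries, 1598 of 22793 (7.01%, 6.68 to 7.35%) held TGIF1, beside 666 of the 23175 sites with 1 MEIS1 library (2.87%, 2.66 to 3.10%). Within the shared class, the most frequent combination was TGIF1 replicate 1 with both MEIS1 libraries (1286 sites), followed by TGIF1 replicate 1 with MEIS1 replicate 2 alone (451) and by all 4 libraries (276). The plot of sites by combination of lists also shows that 455 of the 548 TGIF1-only sites came from TGIF1 replicate 1 alone and 51 from both TGIF1 libraries.

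Merged sites of the shared class were longer than the others, at a median of 890 bp against 616 bp for MEIS1 only and 257 bp for TGIF1 only. Merging makes a site at least as long as its longest peak. In none of the 2264 shared sites were the proteins joined only through a chain of other peaks, because each held a TGIF1 peak that overlapped a MEIS1 peak directly. More than 1 MEIS1 peak of the same list fell in 190 of the shared sites and in 809 of the MEIS1-only sites.

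TGIF1 was found most often at the longest MEIS1 peaks. With the peaks of each MEIS1 list put in 10 classes of width rank, the share with TGIF1 went from 2.05% in the shortest class to 14.8% in the longest for replicate 1, and from 0.809 to 17.0% for replicate 2. In each MEIS1 library the share in each class was at least as high as in the class of shorter peaks before it. The width rank is the only rank these lists allow, and a long peak offers more bases for an overlap. The difference in width rank between MEIS1 peaks with and without TGIF1 was 28.4 percentile points when 1 bp of overlap was enough and 23.9 when the summits had to lie within 100 bp. It was 10.7 with a reciprocal overlap of 50%.

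**Figure D2:**
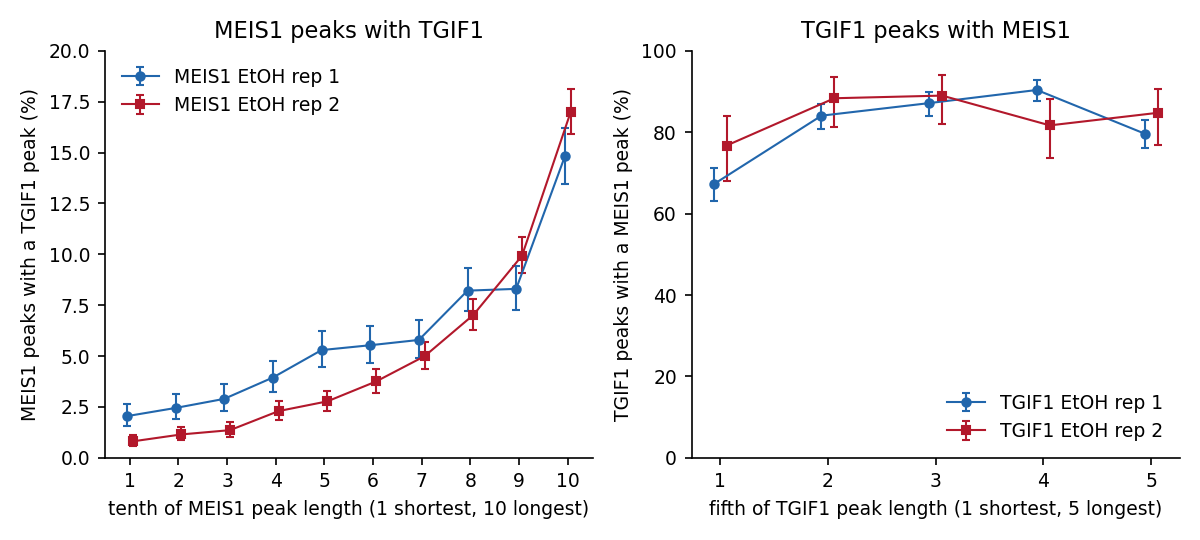
Left, percent of MEIS1 EtOH peaks that overlap a TGIF1 EtOH peak in 10 classes of MEIS1 peak length; right, percent of TGIF1 EtOH peaks that overlap a MEIS1 EtOH peak in 5 classes of TGIF1 peak length. Points are single libraries and bars are exact 95% intervals; the MEIS1 libraries end at 14.8 and 17.0% in the longest class, and TGIF1 replicate 1 starts at 67.2% in its shortest.

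Expressed as percentiles within a list, where 100 is the longest peak, MEIS1 peaks with TGIF1 had a median width rank of 72.3 in replicate 1 and 81.5 in replicate 2. MEIS1 peaks without TGIF1 had medians of 48.8 and 48.1. In bp, these were 436 against 359 in replicate 1 and 881 against 625 in replicate 2. Peaks with TGIF1 were the longer ones in both libraries, by 28.4 ± 6.95 percentile points on average (SD, n = 2).

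TGIF1 peaks showed no such separation by width. The median width rank of TGIF1 peaks with and without MEIS1 was 52.1 and 35.6 in replicate 1 (287 and 254 bp) and 50.3 and 49.5 in replicate 2. The mean difference of 8.62 ± 11.1 percentile points (SD, n = 2) was smaller than the spread between the libraries, and its sign depended on the rule for a shared peak: it was 14.6 points with a reciprocal overlap of 50% and -11.9 points with summits within 100 bp. In 5 classes from short to long, 67.2, 84.1, 87.1, 90.4 and 79.6% of the peaks of TGIF1 replicate 1 held MEIS1. For replicate 2 the shares were 76.7, 88.3, 89.0, 81.7 and 84.7%. The shortest class had the lowest share in both libraries, and above it the shares took no common order.

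The longest peaks of the 2 proteins were rarely the same. Among the 592 longest peaks of each list, the number in the shortest list, 5.24 to 11.1% of the TGIF1 peaks met one of the longest MEIS1 peaks over the 4 pairs of libraries. The same TGIF1 peaks met a peak of any length in a MEIS1 library at 48.5 to 82.1%. Among the longest peaks, 45.8% of those of TGIF1 replicate 1 met replicate 2, and 16.0% of those of MEIS1 replicate 1 met replicate 2. In induced cells the longest TGIF1 peaks met the longest MEIS1 peaks at 8.45 to 27.4%, a range that overlaps the one before induction.

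Where peaks of the 2 proteins overlapped, their summits lay near each other but farther apart than the summits of replicates. The median distance was 28 bp between TGIF1 replicate 1 and MEIS1 replicate 1 (1546 pairs of peaks) and 34 bp between TGIF1 replicate 1 and MEIS1 replicate 2 (2219 pairs). It was 39 bp between TGIF1 replicate 2 and MEIS1 replicate 1 (289 pairs) and 68 bp between TGIF1 replicate 2 and MEIS1 replicate 2 (491 pairs). Replicates gave 20 bp for TGIF1 (467 pairs) and 17 bp for MEIS1 (23843 pairs). All 4 pairs between proteins exceeded both pairs within a protein, with means of 42.25 ± 17.7 bp (SD, n = 4 pairs that share libraries) and 18.5 bp. The difference of 23.75 bp had a two-sided exact permutation p over libraries of 0.333, the smallest this design can give. DNA had been sheared to about 300 bp, a length well above all of these medians. Among the 592 longest peaks of each list, few of which overlapped, the mean distance between proteins was 243 bp.

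The distances between proteins had a long upper tail. Summits within 50 bp of each other made up 67.3, 59.6, 57.8 and 45.6% of the 4 pairs in the order above, beside 73.9% for the TGIF1 replicates and 82.6% for the MEIS1 replicates. Summits over 200 bp apart made up 10.9, 21.2, 14.9 and 30.5%, beside 5.35 and 7.45% for the replicates. In the pairs with the long MEIS1 replicate 2 peaks, 94.6 and 88.6% of the overlapping TGIF1 peaks lay wholly inside the MEIS1 peak, and in the pairs with MEIS1 replicate 1 57.1 and 41.2% did.

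**Figure D3:**
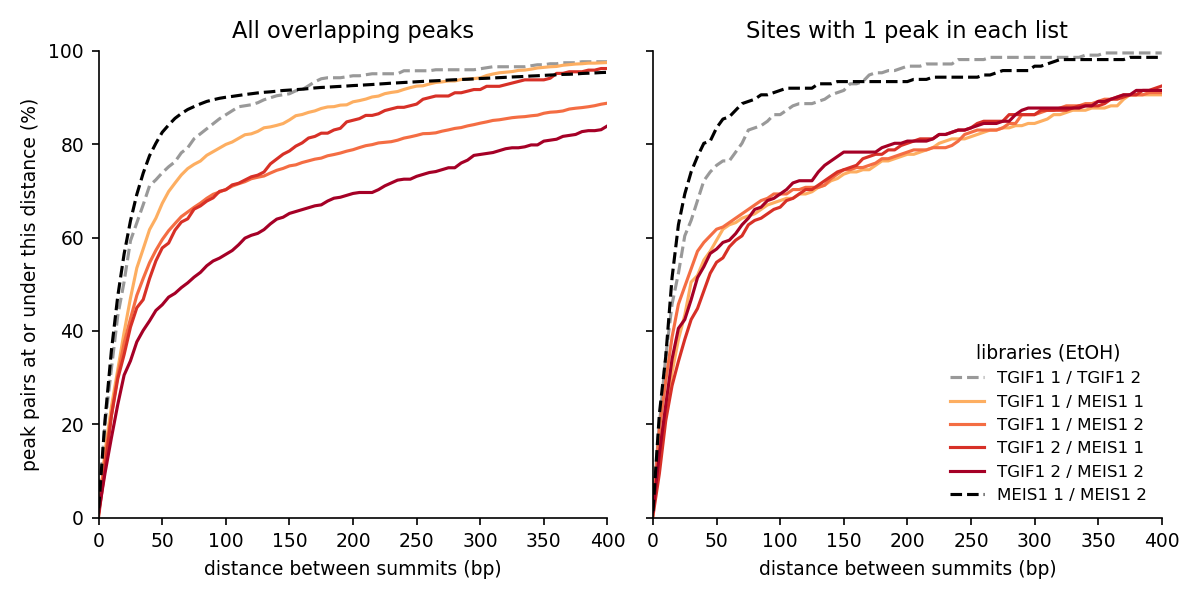
Cumulative percent of pairs of overlapping peaks against the distance between their summits, for all overlapping peaks (left) and for the 212 sites with exactly 1 peak in each list (right); dashed lines are replicates of one protein and solid lines are TGIF1 against MEIS1. On the right the 4 solid lines run together below both dashed lines, with medians of 27 to 42 bp against 15 and 19 bp.

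The same order was seen at sites with exactly 1 peak in every list. At the 212 sites with exactly 1 peak in each of the 4 lists, the medians between proteins were 30, 27, 42 and 33 bp, and those between replicates were 19 bp for TGIF1 and 15 bp for MEIS1. The means were 33 ± 6.48 bp (SD, n = 4 pairs that share libraries) and 17 bp, a difference of 16 bp (two-sided exact permutation p = 0.333, the smallest possible). At these sites the pairs between proteins differed less from each other than over all overlapping peaks. All 4 summits fell within 50 bp at 94 of the 212 sites (44.3%), and the median span of the 4 summits was 70 bp.

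Width ranks of the 2 proteins were loosely related at the same 212 sites. Spearman's coefficient across sites was 0.566 between the TGIF1 replicates, 0.258 between the MEIS1 replicates and 0.188 to 0.397 between a TGIF1 and a MEIS1 library. These are descriptions over sites, which are not replicates and share the libraries.

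The summit distance was longest at the widest MEIS1 peaks in 3 of the 4 pairs of libraries. From the shortest to the longest of 5 classes of MEIS1 width, the median distance of TGIF1 replicate 1 to MEIS1 replicate 1 was 19, 24, 26, 25 and 36 bp, and to MEIS1 replicate 2 it was 17, 27, 24, 30 and 50 bp. In the longest class, 18.8 and 32.4% of these pairs were over 200 bp apart. For TGIF1 replicate 2 the medians to MEIS1 replicate 2 were 51.5, 47, 54, 52 and 90 bp, and those to MEIS1 replicate 1 were 24, 28.5, 47.5, 39.5 and 39 bp. The longest class thus stood apart from 4 like classes in the first of these pairs, and the longest class was not the highest in the second. The classes of TGIF1 replicate 2 were small, with 17 pairs in the smallest. By TGIF1 width, the medians of TGIF1 replicate 1 to MEIS1 replicate 2 were 32, 32, 28, 31 and 85 bp, again with the longest class apart. Those of TGIF1 replicate 2 to MEIS1 replicate 2 instead rose from class to class, at 32, 44.5, 54.5, 131.5 and 187 bp. The longest class of TGIF1 width had the highest median in all 4 pairs.

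Summits lay farther apart where the TGIF1 peak itself overlapped no MEIS1 replicate 1 peak, whether or not such a peak lay elsewhere in the merged site. TGIF1 replicate 1 summits lay a median of 26 bp from MEIS1 replicate 2 summits at the 1498 pairs where the TGIF1 peak also overlapped a MEIS1 replicate 1 peak, and 77 bp at the 721 pairs where it did not. For TGIF1 replicate 2 the medians were 31.5 bp (276 pairs) and 180 bp (215 pairs). Both TGIF1 libraries thus showed the longer distance at MEIS1 peaks that the other MEIS1 library had not listed at the TGIF1 peak. Within the longest of 5 classes of MEIS1 replicate 2 width, the medians were 30 bp (804 pairs) against 274 bp (379 pairs) for TGIF1 replicate 1, and 33 bp (188 pairs) against 266.5 bp (136 pairs) for TGIF1 replicate 2. The split and the distance are not independent measures, since a TGIF1 peak far from the MEIS1 summit meets a narrower MEIS1 replicate 1 peak less easily.

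The next comparisons set MEIS1 peaks with TGIF1 beside MEIS1 peaks without it that were next in width rank in the same list. This gave 1556 matched pairs in MEIS1 EtOH replicate 1, with a median length of 436 bp on both sides, and 2226 in replicate 2, with 881 bp on both sides. Matching serves as a description and no test was made.

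At matched width, MEIS1 peaks with TGIF1 were found in the other MEIS1 library somewhat more often. The share was 97.1% with and 92.2% without TGIF1 for replicate 1, and 71.8 and 63.1% for replicate 2. The MEIS1 summit was placed slightly more alike between replicates at peaks with TGIF1, with median distances of 14 against 17 bp for replicate 1 and 14 against 15.5 bp for replicate 2. Both measures had the same direction from the side of either MEIS1 library. Each measure compares the same pair of MEIS1 libraries, so the results from the 2 sides are not independent. Split by width class without matching, the order of the distances turned in the shortest class of MEIS1 EtOH replicate 2, at 18 bp with and 16 bp without TGIF1. In every other class of both libraries the distance was shorter with TGIF1.

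In the lists from induced cells, which did not choose the sites, TGIF1 peaks lay at nearly all shared sites and at a minority of MEIS1-only sites. After 4-OHT, a peak of TGIF1 4-OHT replicate 1 lay at 94.6% of the shared sites, 50.5% of the TGIF1-only sites and 17.4% of the MEIS1-only sites, beside 21.5% of all sites. A peak of TGIF1 4-OHT replicate 2 lay at 97.6, 48.9 and 40.1%, beside 43% of all sites. The shared class was the highest in both libraries, with a mean of 96.1 ± 2.12% (SD, n = 2) against 28.8 ± 16.1% for MEIS1-only sites, and the difference was 67.4 ± 14.0 percentage points. With a peak in either TGIF1 4-OHT library counted, the shares were 98.5% for shared, 56.4% for TGIF1-only and 40.5% for MEIS1-only sites, beside 43.5% of all sites. The lead of 58.0 points of shared over MEIS1-only sites was 9.89 points with EtOH lists of equal length.

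MEIS1 4-OHT peaks separated the shared from the MEIS1-only sites less widely. MEIS1 4-OHT replicate 1 had a peak at 61.1% of shared, 41.5% of MEIS1-only and 4.38% of TGIF1-only sites, beside 42% of all sites. MEIS1 4-OHT replicate 2 had one at 95.4, 85.3 and 12.8%, beside 84.9% of all sites. Shared sites were higher than MEIS1-only sites in both libraries, by 14.8 ± 6.67 percentage points (SD, n = 2). TGIF1-only sites were far below both classes. They are classed by having no MEIS1 EtOH peak, so a low share was partly set by the classing. They were also the shortest class, with a median of 257 bp, and the part of length was not tested. With either library counted, 96.4% of shared, 86.1% of MEIS1-only and 16.6% of TGIF1-only sites had a MEIS1 4-OHT peak, beside 85.8% of all sites. The lead of 10.2 points of shared over MEIS1-only sites was 19.6 points without MEIS1 4-OHT replicate 2, 6.05 points without MEIS1 EtOH replicate 2 and -2.72 points with EtOH lists of equal length.

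**Figure D4:**
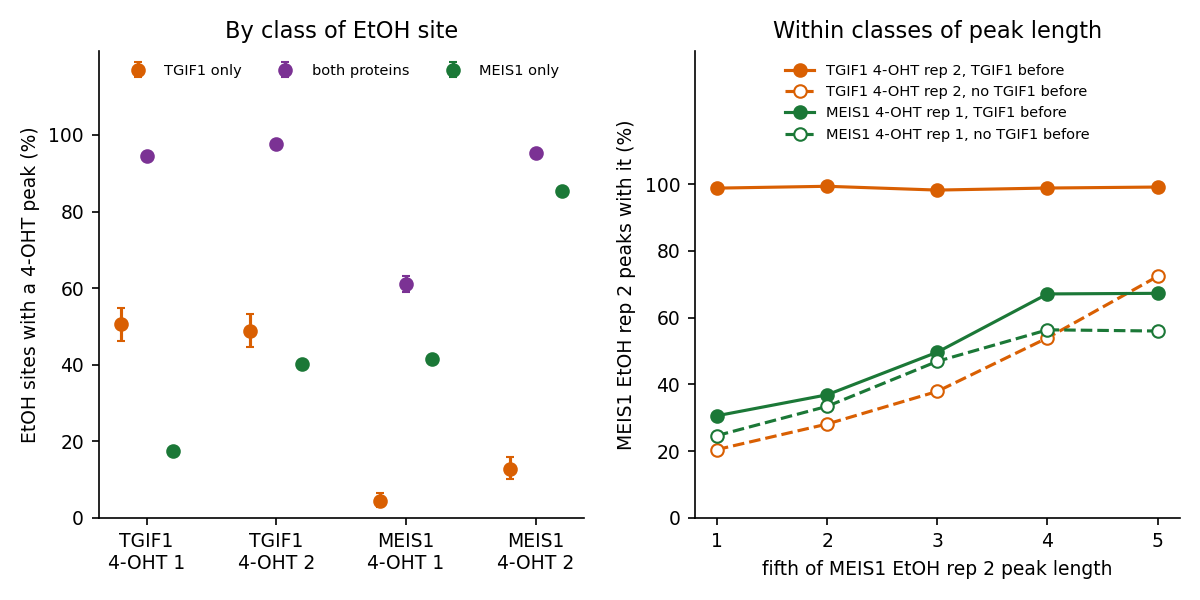
Left, percent of EtOH sites of each class with a peak in each 4-OHT library, with exact 95% intervals; right, percent of MEIS1 EtOH replicate 2 peaks with a TGIF1 4-OHT replicate 2 or MEIS1 4-OHT replicate 1 peak in 5 classes of length, 1 the shortest, with and without a TGIF1 EtOH peak. Shared sites are highest in every library, and on the right the TGIF1 4-OHT points of peaks with TGIF1 stay between 98.2 and 99.4%.

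The difference for TGIF1 was also present at matched width. In MEIS1 EtOH replicate 1, TGIF1 4-OHT replicate 1 had a peak at 96.7% of the peaks with TGIF1 and at 28.1% of the matched peaks without it, and TGIF1 4-OHT replicate 2 at 97.4 and 52.6%. In MEIS1 EtOH replicate 2 the shares were 95.3 and 28.7% for TGIF1 4-OHT replicate 1, and 99.0 and 62.2% for replicate 2. TGIF1 peaks before and after induction came from the same antibody, and the part of the antibody in their overlap was not tested.

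For MEIS1 the difference narrowed at matched width. MEIS1 4-OHT replicate 1 had a peak at 76.7 and 71.7% of the matched peaks with and without TGIF1 in MEIS1 EtOH replicate 1, and at 61.4 and 52.8% in replicate 2. For MEIS1 4-OHT replicate 2 the shares were 96.1 and 92.6%, and 97.0 and 94.9%. Peaks with TGIF1 were the higher side in all 4 of these comparisons. Within the longest of 5 width classes of MEIS1 EtOH replicate 1 the order turned for MEIS1 4-OHT replicate 2, at 96.0% with and 96.8% without TGIF1.

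MEIS1 peaks without TGIF1 before induction had a TGIF1 4-OHT peak more often the wider they were. From the shortest to the longest of 5 classes of MEIS1 EtOH replicate 2 peaks without TGIF1, TGIF1 4-OHT replicate 2 had a peak at 20.5, 28.1, 37.9, 53.9 and 72.4%. For TGIF1 4-OHT replicate 1 the shares were 7.43, 10.6, 15.9, 23.2 and 35.6%. An overlap of 1 bp was enough here, and a long peak offers more bases for it. The rise was not tested under a stricter rule. Peaks that had TGIF1 before induction stayed between 94.1 and 99.4% in every class and both TGIF1 4-OHT libraries. With shares this close to 100%, the peaks with TGIF1 could hardly show a rise with width.

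The combinations of EtOH lists differed within the classes. All 276 sites with a peak in all 4 EtOH lists had peaks of both TGIF1 4-OHT libraries, beside 21.1% of all sites. For sites with both TGIF1 EtOH libraries and no MEIS1 the share was 88.2%. Peaks of both MEIS1 4-OHT libraries lay at 202 of the 276 (73.2%), beside 41.2% of all sites. The closer comparison is with sites that had both MEIS1 EtOH libraries and no TGIF1, where the share was 69.1%. Sites with TGIF1 replicate 1 and MEIS1 replicate 2 alone had a MEIS1 4-OHT replicate 1 peak in 21.1% and a MEIS1 4-OHT replicate 2 peak in 91.4% of cases, against 78.4 and 98.8% for sites with TGIF1 replicate 1 and both MEIS1 libraries. Among MEIS1-only sites, those in both MEIS1 libraries had these peaks in 69.5 and 96.5%, and those in MEIS1 replicate 2 alone in 15.1 and 79.4%. Those in MEIS1 replicate 1 alone had them in 15.9 and 35.5%, and the 33 sites with TGIF1 replicate 1 and MEIS1 replicate 1 alone in 30.3 and 6.06%. Among these combinations, the share with MEIS1 4-OHT replicate 1 was thus highest at sites in both MEIS1 EtOH libraries, with or without TGIF1.

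Where the EtOH summits of the 2 proteins lay over 100 bp apart, most 4-OHT summits lay nearer to their own protein's EtOH summit. With TGIF1 replicate 1 and MEIS1 replicate 2 as the EtOH libraries, there were 659 such pairs. TGIF1 4-OHT replicates 1 and 2 had a peak at 627 and 651 of them. MEIS1 4-OHT replicates 1 and 2 had one at 360 and 645. Among these, the TGIF1 4-OHT replicate 1 summit was nearer to the TGIF1 EtOH summit in 486 and nearer to the MEIS1 EtOH summit in 141, and TGIF1 4-OHT replicate 2 gave 469 and 182. MEIS1 4-OHT replicate 1 was nearer to TGIF1 in 55 and nearer to MEIS1 in 305, and MEIS1 4-OHT replicate 2 gave 102 and 543. The induced lists of the 2 proteins thus leaned in opposite directions, with a minority of each on the other side.

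The median distances at these 659 pairs show the size of the separation. A pair enters a median only where the 4-OHT library in question had a peak. The TGIF1 4-OHT replicate 1 summit lay 27 bp from the TGIF1 EtOH summit and 252 bp from the MEIS1 EtOH summit. The MEIS1 4-OHT replicate 2 summit lay 281 bp from the TGIF1 EtOH summit and 15 bp from the MEIS1 EtOH summit. At pairs whose EtOH summits were at most 100 bp apart, the same libraries lay 15 bp from each EtOH summit (TGIF1 4-OHT replicate 1) and 21 and 10 bp from the TGIF1 and the MEIS1 summit (MEIS1 4-OHT replicate 2).

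**Figure D5:**
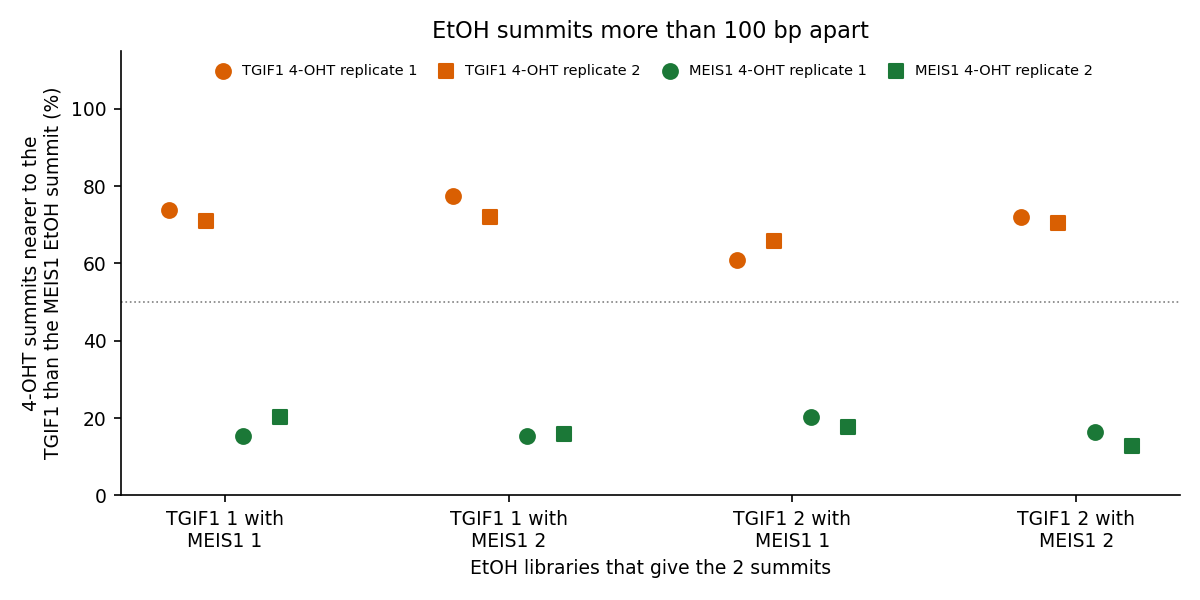
Percent of 4-OHT summits that lay nearer to the TGIF1 than to the MEIS1 EtOH summit, at overlapping EtOH peaks with summits over 100 bp apart, for the 4 pairs of EtOH libraries; each point is 1 library from induced cells and the dotted line marks equal parts. All 8 TGIF1 4-OHT points lie between 60.8 and 77.5%, and all 8 MEIS1 4-OHT points between 12.9 and 20.4%.

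The other pairs of EtOH libraries were ordered alike. TGIF1 4-OHT summits were nearer to the TGIF1 EtOH summit in 60.8 to 77.5% of cases over all 4 pairs and both libraries, and MEIS1 4-OHT summits were nearer to the MEIS1 EtOH summit in 79.6 to 86.7%. The lowest TGIF1 value came from the smallest set, TGIF1 replicate 2 with MEIS1 replicate 1, with 86 pairs, where TGIF1 4-OHT replicate 1 counted 48 nearer to TGIF1 and 31 nearer to MEIS1. The 4 pairs of libraries share sites and are not independent.

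The 548 TGIF1-only sites were mostly not at the edge of a MEIS1 peak. The median gap to the nearest MEIS1 EtOH peak was 8151.5 bp (quartiles 1510.5 and 32334 bp), with 112 sites (20.4%) within 1 kb and 220 (40.1%) within 5 kb. No peak of either protein was listed after 4-OHT at 221 of them. The 51 sites with both TGIF1 libraries and no MEIS1 were found more often in the TGIF1 4-OHT lists: 96.1% carried a peak of replicate 1 and 88.2% of replicate 2, against 49.2 and 45.7% of the 455 sites from TGIF1 replicate 1 alone. Over all sites these TGIF1 4-OHT shares were 21.5 and 43%. A MEIS1 4-OHT peak of either library was found at 13 of the 51 (25.5%), beside 85.8% of all sites. The 51 sites were classed by having no MEIS1 EtOH peak, whereas most of all sites had one. The comparison is therefore not of like with like, and a lower share was partly set by the classing.

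TGIF1-only sites also stood more often alone. No other EtOH site lay within 50 kb of 17.2% of the TGIF1-only sites, 3.80% of the shared sites and 6.95% of the MEIS1-only sites. The mean number of other sites within 50 kb was 4.36, 5.67 and 5.22 in the same order. The medians were 3, 5 and 5, so TGIF1-only sites had the sparsest surroundings and shared and MEIS1-only sites did not differ in the median.

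The chromosomes were not used alike. Chromosome 15 held 7.92 and 13.5% of the peaks of the TGIF1 libraries and 5.68 and 5.39% of those of the MEIS1 libraries. It held 9.05% of the shared and 5.18% of the MEIS1-only sites, and 8.31% of its MEIS1 sites carried TGIF1, against 4.93% in the genome. The X chromosome held 3.47% of TGIF1-only sites (19 sites), 0.398% of shared sites (9) and 1.24% of MEIS1-only sites. Without chromosome 15, the share of TGIF1 sites with MEIS1 was 80.1% and that of MEIS1 sites with TGIF1 was 4.73%.

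Some windows of 1 Mb, chosen after their values were seen, held many shared sites. On chromosome 6 from 47 to 48 Mb, 16 of 44 MEIS1 sites carried TGIF1 (36.4%). On chromosome 15 from 99 to 100 Mb it was 16 of 77 (20.8%), and on chromosome 10 from 80 to 81 Mb 14 sites carried both (13.9% of the MEIS1 sites). All positions are on mm9 and count from 1.

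Among the 276 sites with a peak in all 4 lists, the site with the highest mean width rank lay on chromosome 1 from 87491490 to 87498185. Its longest peaks were 2193 and 1273 bp in TGIF1 replicates 1 and 2, and 1446 and 6696 bp in MEIS1 replicates 1 and 2. The 4 summits fell within 11 bp of each other, and 3 of the 4 lists from induced cells held a peak there. It is named because the rule ranks by width, which favours such long peaks.

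The next site showed the opposite arrangement of summits. It lay on chromosome 6 from 47717128 to 47718936, inside the dense window on that chromosome, with peaks of 1207, 672, 1431 and 1809 bp in TGIF1 replicates 1 and 2 and MEIS1 replicates 1 and 2. Relative to the MEIS1 replicate 1 summit, the summits lay at 24 bp in TGIF1 replicate 1, 944 bp in TGIF1 replicate 2 and 268 bp in MEIS1 replicate 2. The TGIF1 replicates themselves were thus far apart at this site, which had peaks in all 4 lists from induced cells.

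A neighbouring pair of sites on chromosome 3 had close summits. The first, from 40650305 to 40651500, held TGIF1 summits at 3 and -21 bp from the MEIS1 replicate 1 summit and the MEIS1 replicate 2 summit at 5 bp. The second, from 40697664 to 40698685, held them at -30, -12 and -21 bp. On chromosome 15 from 80084930 to 80087090, both TGIF1 summits lay 2 bp and the MEIS1 replicate 2 summit 13 bp from that of MEIS1 replicate 1. These 3 sites had peaks in all 4 lists from induced cells. Of the 105 sites with a peak in all 4 EtOH lists and all summits within 50 bp, 85 (81.0%) had both MEIS1 4-OHT peaks. The share was 73.2% for the whole 276 sites in all 4 EtOH lists. It was 69.1% for sites with both MEIS1 EtOH libraries and no TGIF1, and 41.2% for all sites.

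At other sites both TGIF1 libraries placed their summit away from both MEIS1 libraries. On chromosome 3 from 89576218 to 89578095, the TGIF1 summits lay 748 and 791 bp from the MEIS1 replicate 1 summit, and the MEIS1 replicate 2 summit lay at 0 bp. On chromosome 2 from 34760052 to 34761378, the TGIF1 summits lay at -405 and -252 bp and the MEIS1 replicate 2 summit at 21 bp. On chromosome 15 from 57907271 to 57908855 the split was between libraries and not between proteins, since TGIF1 replicates 1 and 2 and MEIS1 replicate 2 lay at 311, 335 and 296 bp.

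Among the sites with both TGIF1 libraries and no MEIS1, the longest lay on chromosome 15 from 75932952 to 75936444, with peaks of 3447 and 3493 bp and none in any list from induced cells. The site on chromosome 17 from 85189747 to 85190353 was shorter, with peaks of 594 and 518 bp and summits 2 bp apart. These peaks were still longer than the medians of their lists, 283 and 336.5 bp. The site had peaks of both TGIF1 4-OHT libraries and of neither MEIS1 4-OHT library. So did the site on chromosome 4 from 125933429 to 125933945, with TGIF1 peaks of 517 and 496 bp.

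The sites with both MEIS1 libraries and no TGIF1 were led by chromosome 8 from 124345854 to 124351741, with peaks of 5722 and 5888 bp. After induction it had peaks of both MEIS1 4-OHT libraries and no TGIF1 peak. Other wide sites without TGIF1 before induction carried peaks of all 4 lists from induced cells. Among them were a site on chromosome 14 at 15177900 to 15181148, a site on chromosome 15 at 8468057 to 8470285, and a site at 95496461 to 95498819 on chromosome 3. A site on chromosome 15 at 98999807 to 99002296 had no peak of either protein in the lists from induced cells. One on chromosome 1 at 85039200 to 85041359 had a peak of TGIF1 4-OHT replicate 2 but not of replicate 1. Several outcomes thus occurred among the widest MEIS1-only sites. Of the 21195 sites with both MEIS1 libraries and no TGIF1, 5140 (24.3%) carried both TGIF1 4-OHT peaks, near the 21.1% of all sites.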

How the data were processed

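Each of the 8 deposited peak lists holds positions in bp on mm9 (chromosome, start, end, length, summit), made by the authors for single libraries. Per the submitters' processing notes, Bowtie 0.12.7 and mm9 were used. Per the file headers, the list of MEIS1 4-OHT replicate 2 came from MACS 1.4.2. For the remaining lists the peak caller, and for all lists the threshold and control, were not given in the sources used here. Nothing in the lists gives a score or depth, so width rank within a list stood in for a score.

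Lists were merged at 1 bp of overlap, and summit distance was taken over every overlapping pair of peaks. Exact permutation tests ran over libraries. Python 3.11.15 with numpy 2.4.6, pandas 2.3.3, scipy 1.17.1 and matplotlib 3.10.9 was used. Overlaps equalled those of bedtools 2.31.1 in 112 of 112 comparisons, and the code was tested on simulated data.

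Sites, lists and comparisons were chosen with earlier results of these data known. Named regions are taken from the 10 with the highest mean width rank among sites in all 4 EtOH lists, among those with summits within 50 bp, among sites with both TGIF1 and no MEIS1 lists, and the reverse. Gene positions, gene lists and motifs had been planned, but a genome and annotation of mm9 were not used here. The alternatives tried are given in the closing section.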

Additional observations from a re-analysis of the deposited data

How the results depend on the processing

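The share of TGIF1 sites with MEIS1 (80.5%) was 45.0% with a reciprocal overlap of 50%, 58.5% with summits within 100 bp, 77.9% with the longer part of each list, 15.6% with 592 peaks in every list and 59.5% with a peak in both libraries. Leaving out single libraries gave 54.1 to 84.0%. The share of MEIS1 sites with TGIF1 (4.93%) was 2.32% with reciprocal overlap, 3.57% with close summits, 12.9% with equal lists and 1.21% with both libraries, and 1.07 to 5.91% without single libraries. The mean summit distance between proteins (42.25 bp) was 20 bp with close summits, which that rule enforces, 65.6 bp with the longer part and 243 bp with equal lists. The width difference of MEIS1 peaks (28.4 points) was 10.7 with reciprocal overlap and 17.4 with equal lists. That of TGIF1 peaks (8.62 points) had no stable sign: -11.9 with close summits, -3.26 with the longer part, -9.15 with both libraries, 14.6 with reciprocal overlap and 20.2 with equal lists. After induction, shared sites exceeded MEIS1-only sites in TGIF1 4-OHT peaks, either library counted, by 58.0 points, by 9.89 with equal lists and by 75.7 with both libraries. For MEIS1 4-OHT the 10.2 points became -2.72 with equal lists. Leaving out single libraries gave 53.1 to 77.2 and 6.05 to 19.6 points, the upper ends without replicate 2 of the 4-OHT group. Equal lists keep the longest peaks and few of them; for the other changes the cause was not tested. Peak number gave log2 ratios of 3.66 to 5.88 without single libraries. Without peaks of 3 kb or more, or without chromosome 15 (added after seeing the data, as was leaving out 4-OHT libraries), the 9 summary values kept their direction, and the 7 with a spread between libraries to compare moved by less than it.

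Nothing in the labels says that replicate numbers pair the libraries, and across shared sites the replicate difference of TGIF1 and MEIS1 correlated at r = 0.0915, which lists of unequal length cannot decide. With a replicate block, which averages values within each number, the share of TGIF1 sites with MEIS1 was 68.7% (55.4 and 81.9%), that of MEIS1 sites with TGIF1 was 3.44% and the TGIF1 width difference was -1.13 points. The planned motif alternatives were not run.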
